A study of Danio rerio with 2 samples.

Results

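The genes described are the receptors of the zebrafish genome for dopamine, serotonin, noradrenaline and adrenaline, and histamine, together with the muscarinic receptors for acetylcholine. They were chosen by symbol (drd, htr, adra1 and adra2, adrb1 to adrb3, chrm and hrh, each followed by a number where the family has one), which gave 60 of the 25435 features of the count tables. Adult fish gave 2 libraries of single-cell RNA from brain, 1 per genotype, made with a 3′ droplet kit from live eGFP+ cells sorted after papain digestion. The control library carried 1 Gal4 allele at the gpr85 locus (gpr85Gal4/+) and the knockout library carried 2 (gpr85GAL4/GAL4), so cells of both had at least 1 Gal4 insertion in gpr85. The labels give no age beyond adult, no sex and no number of fish, and 50000 cells were sorted per condition. The sorted cells are labelled as expressing gpr85, so the levels below are not those of whole brain.

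Almost all of these receptors are membrane proteins that pass a signal to G proteins inside the cell, as worked out mostly in mammals. Receptors of the drd2, drd3 and drd4 group, the htr1 group, the adra2 group, chrm2, chrm4 and hrh3 couple to Gi and Go proteins, which lower cyclic AMP and open potassium channels. Beta-adrenergic receptors and those of the htr4, htr6 and htr7 groups couple to Gs and raise cyclic AMP, and the adra1 and htr2 groups and chrm3 couple to Gq and release calcium from stores. In the brain they set how neurons respond to slow, widely spread transmitters rather than carrying fast synaptic signals.

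With a minimum of 1000 UMIs (unique molecular identifiers, counted molecules) and 500 genes and at most 15% mitochondrial UMIs, 4091 control and 3231 knockout cells were kept. They held 13754829 and 11215916 UMIs, at medians of 2585 and 2844 per cell. The targeted gene gpr85, an orphan G-protein-coupled receptor, stood at 145 and 108 CPM in control and knockout cells, a log2 ratio of -0.42 (95% interval -0.52 to -0.32). The lower value over all cells went with the label, but gpr85 was still counted in the knockout library. In the gsg1l-lmx1al-gated cells described below it was not lower, at 141 and 151 CPM, a log2 ratio of 0.10 (-0.27 to 0.46). There were no replicates, so no test between genotypes was possible and every difference between libraries is between 2 libraries. Of the cell barcodes, 8 occurred in both. Levels are CPM of the summed UMIs of a population, the usual scaling of counts to a fixed total, and pairs of values are given as control, then knockout. Their 95% intervals cover counting error only, and where a few cells supply most UMIs the true error is wider.

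Cells were assigned to types by marker gates, which needed at least 3 UMIs over at least 2 genes of a list and more than free RNA would give. Most cells passed the gate for cerebellar granule cells (cbln12, gabra6b, zic1, fat2, barhl1a), 2202 control and 2162 knockout cells. Gates on gsg1l with lmx1al took 488 and 157 cells, on galn with pvalb7 and neurod6a 150 and 46, and on uts1 with otofa 61 and 41. GABAergic gates took 44 and 18 cells, habenula gates 19 and 72, and microglia gates 9 and 14. Cells that passed no gate numbered 727 and 568, at shallower medians of 1858 and 1926.5 UMIs. Among markers that no gate used, slc6a1b was higher in GABAergic-gated than in granule-gated cells (1970 and 3266 CPM against 4.43 and 3.51). Some were at 0 in their own type, as were apoeb in radial glia-gated cells of both libraries and sox10 in oligodendrocyte-gated knockout cells. The gsg1l-lmx1al-gated cells carried the granule markers neurod1 (2401 and 2252 CPM, against 2164 and 2136 in granule-gated cells) and zic1 (1310 and 1269 CPM against 1816 and 1739.8). Other granule markers were lower there, vamp1 at 60.9 and 33.8 CPM against 347 and 322, gabra6b at 95.03 and 115 CPM against 299 and 306, and barhl1a at 21.9 and 13.5 CPM against 266 and 185. The habenula gate rested on kiss1 and aoc1, since gng8 had 0 UMIs in those cells, and pou4f1, which the gate did not use, stood there at 698 and 387 CPM. The radial glia gate did not hold the same kind of cell in both libraries. Its 22 control cells had fabp7a at 941 CPM and its 22 knockout cells at 16152 CPM, so those cells are called by the gate alone. Oligodendrocyte-gated cells also carried granule markers (zic1 at 1381 CPM in the control). So did galn-gated cells, with fat2 at 1417 and 1567 CPM and neurod1 at 2074 and 2010 CPM, though barhl1a was at 18.1 and 8.10 CPM.

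The 60 receptors fell into a counted minority and a scarce majority. At least 50 UMIs in each library were counted for 14 of them, another 22 reached 10 to 49 in the less counted library, and 24 had fewer. No UMI was seen in kept cells of either library for 4 receptors, drd1a, drd7, adrb2b and chrm5b. A floor of 3 UMIs, against which a count of 0 was set, is 0.218 and 0.267 CPM. The dopamine family held 2768 control and 1656 knockout UMIs over 12 genes, and the serotonin family 1453 and 982 over 21. The 9 muscarinic genes held 686 and 607 UMIs, the 5 beta-adrenergic genes 337 and 243, the 10 alpha-adrenergic genes 331 and 223, and the 3 histamine genes 78 and 44. In all, 47.1% of control and 43.3% of knockout cells had at least 1 receptor UMI. The share was 38.0% and 39.4% in granule-gated cells and 90.6% and 92.4% in gsg1l-lmx1al-gated cells, the latter being slightly deeper (medians 2972 and 3615 UMIs, against 2565 and 2884.5). Reads were taken from transcript ends, duplicated genes such as drd2a and drd2b can share sequence there, and how such reads were assigned is not given in the sources used here. Levels are therefore compared between types for 1 gene, not between genes.

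**Figure D1:**
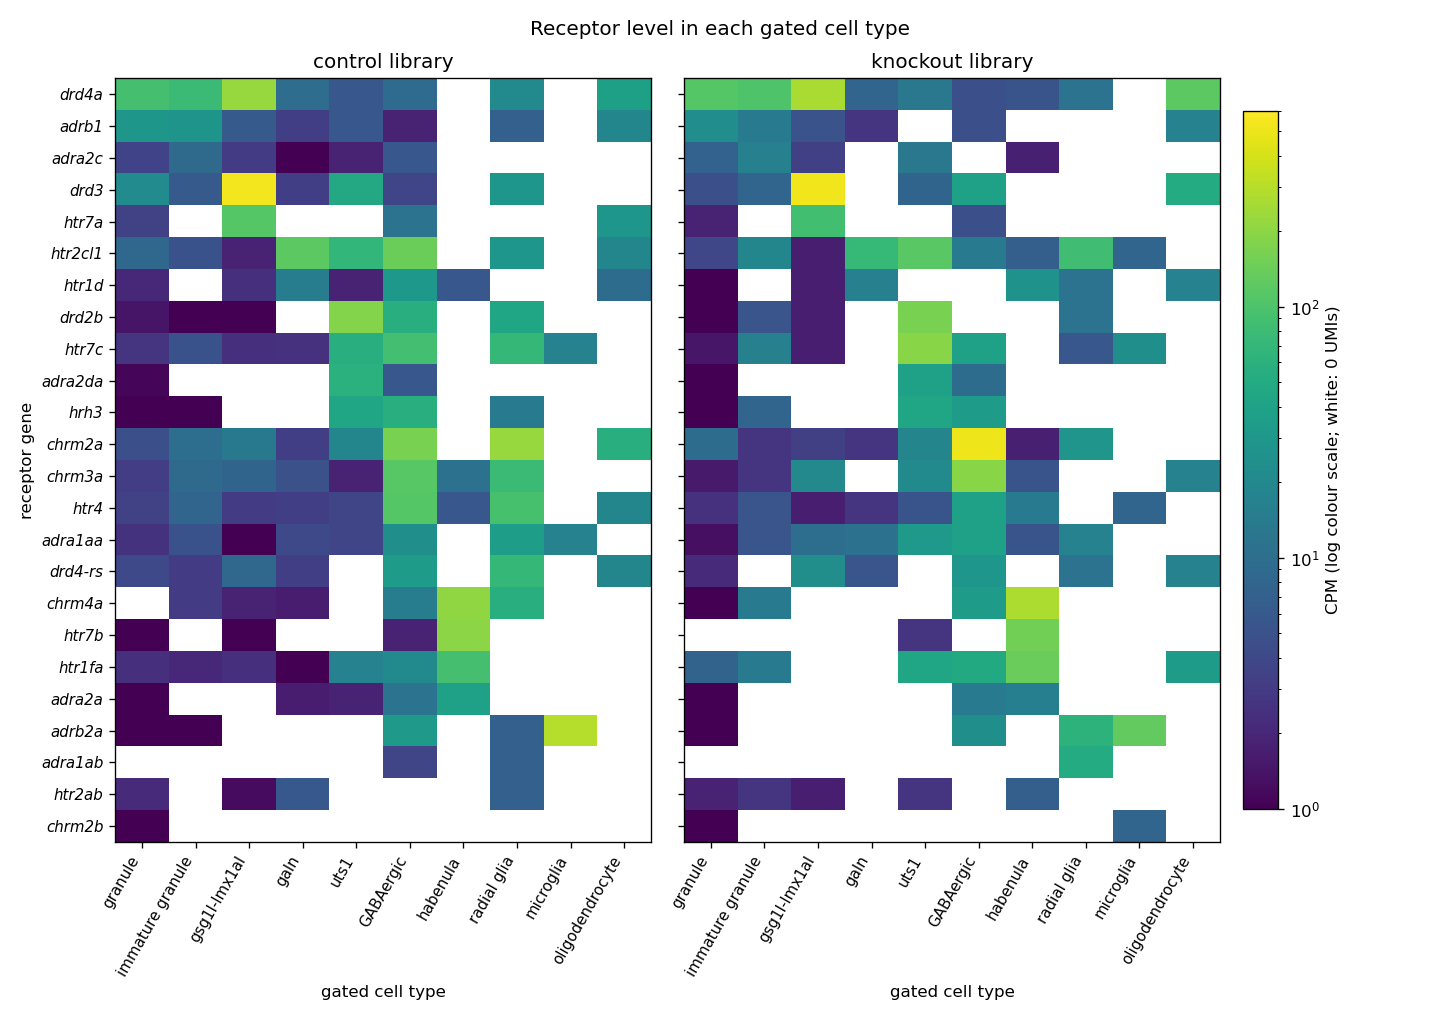
Level of the 24 named receptors (rows) in 10 gated cell types (columns) of the control library (left) and the knockout library (right), in CPM on a log colour scale, with white for 0 UMIs. The brightest cells lie off the granule column for most receptors, such as drd3 at 530 and 529 CPM in gsg1l-lmx1al-gated cells, while drd4a and adrb1 are also seen in granule-gated cells.

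The dopamine receptor drd3 was held by gsg1l-lmx1al-gated cells in both libraries. It had 870 UMIs there in the control, 530 CPM (495 to 566), and 313 in the knockout library, 529 CPM (472 to 592). These cells were 11.9% and 4.86% of all kept cells, but held 75.8% and 82.8% of the UMIs of drd3. Of the 488 control cells 373 had a drd3 UMI, and of the 157 knockout cells 120 had one, 76.4% of each. After thinning every cell to 1000 UMIs, 44.1% (39.6 to 48.6) and 38.9% (31.2 to 46.9) still had one. As background, galn-gated cells, which are deeper (medians 7770 and 7592 UMIs), had 4 and 0 drd3 UMIs over 150 and 46 cells. Granule-gated cells had drd3 at 21.7 CPM (18.2 to 25.6) and 4.82 CPM (3.32 to 6.77), so that gsg1l-lmx1al-gated cells were 24.5-fold and 110-fold higher.

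The serotonin receptor htr7a, which couples to Gs, was found in the same gated cells. It had 181 UMIs there in the control, 110 CPM (94.8 to 128), and 51 in the knockout library, 86.3 CPM (64.2 to 113). Those were 80.8% and 73.9% of its UMIs, and the interval lay above that of every other type with at least 10 cells in both libraries. Granule-gated cells had htr7a at 3.48 and 1.90 CPM. A UMI of htr7a was seen in 129 control and 36 knockout cells of this type. In the control 103 cells had UMIs of both drd3 and htr7a, and in the knockout library 28 did. For this pair and those below, whether cells were shared more often than separate detection would give was not tested.

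Another dopamine receptor of the Gi-coupled kind, drd4a, was also highest in these cells, but it was not held there alone. Its level was 223 CPM (201 to 247) and 266 CPM (226 to 311) in gsg1l-lmx1al-gated cells and 90.7 CPM (83.4 to 98.5) and 112 CPM (104 to 120) in granule-gated cells. That is 2.46-fold and 2.37-fold apart, with intervals that did not overlap. Because granule-gated cells are many, they held 50.04% and 71.5% of all drd4a UMIs. Immature granule-gated cells (hhip, sox11a, sox11b) had 78.7 CPM (62.2 to 98.2) and 103 CPM (73.0 to 142), which overlapped the granule level in both libraries. In the gsg1l-lmx1al gate a UMI of drd4a was seen in 221 control and 81 knockout cells. UMIs of both drd3 and drd4a were seen in 178 and 65.

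Across the 10 receptors with enough counts to be compared with granule-gated cells in both libraries (at least 20 UMIs over both populations), 5 were at least 2-fold higher in gsg1l-lmx1al-gated cells and 1 was lower. Over all genes compared, 3.45% were higher and 5.07% lower by the same rule. The 5 were drd3, htr7a, drd4a, drd4-rs and chrm3a, the last 2 from 14 or fewer UMIs in each library. The single lower receptor was adrb1. The minimum of 20 UMIs counts both populations, so a receptor scarce in granule-gated cells could meet it only through the type where it was high. A higher call was then all but fixed in advance. Here and for the types below, such counts beside the share of all genes therefore give no measure of enrichment.

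The level of adrb1 was highest in granule-gated cells in both libraries, though intervals of other types overlapped it. This gene encodes the beta-1 adrenergic receptor, which raises cyclic AMP in response to noradrenaline. It had 185 UMIs in the control, 29.2 CPM (25.2 to 33.8), and 157 among knockout cells, 22.9 CPM (19.5 to 26.8). These were 69.8% and 81.3% of its UMIs. Few cells had a UMI, 167 of 2202 and 141 of 2162, and the most in 1 cell was 5. In gsg1l-lmx1al-gated cells only 10 and 3 UMIs were counted, 6.09 CPM (2.92 to 11.2) and 5.07 CPM. In the control, granule and immature granule cells could not be told apart for adrb1 (27.2 CPM, 17.9 to 39.6, in the immature cells). In the knockout library adrb1 was not among the 4 highest receptors of the immature cells, the last of which stood at 16.3 CPM. A cell with a UMI of both adrb1 and drd4a was seen 41 times among 454 drd4a-positive granule-gated cells of the control and 38 times among 522 of the knockout library. Within the granule gate, drd4a was seen in each of 4 marker-defined subsets in both libraries. Its level was 89.6 CPM (68.1 to 116) and 97.9 CPM (72.7 to 129) in the subset gated on phldb1a, kcnd3 and inhbb. That gate needed UMIs of at least 2 of the genes. In the subset gated likewise on nr2f1a, matn4 and etv4 drd4a was at 74.0 CPM (8.96 to 267) from 2 UMIs in 7 control cells. It was at 128 CPM (85.2 to 185) in 46 knockout cells.

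**Figure D2:**
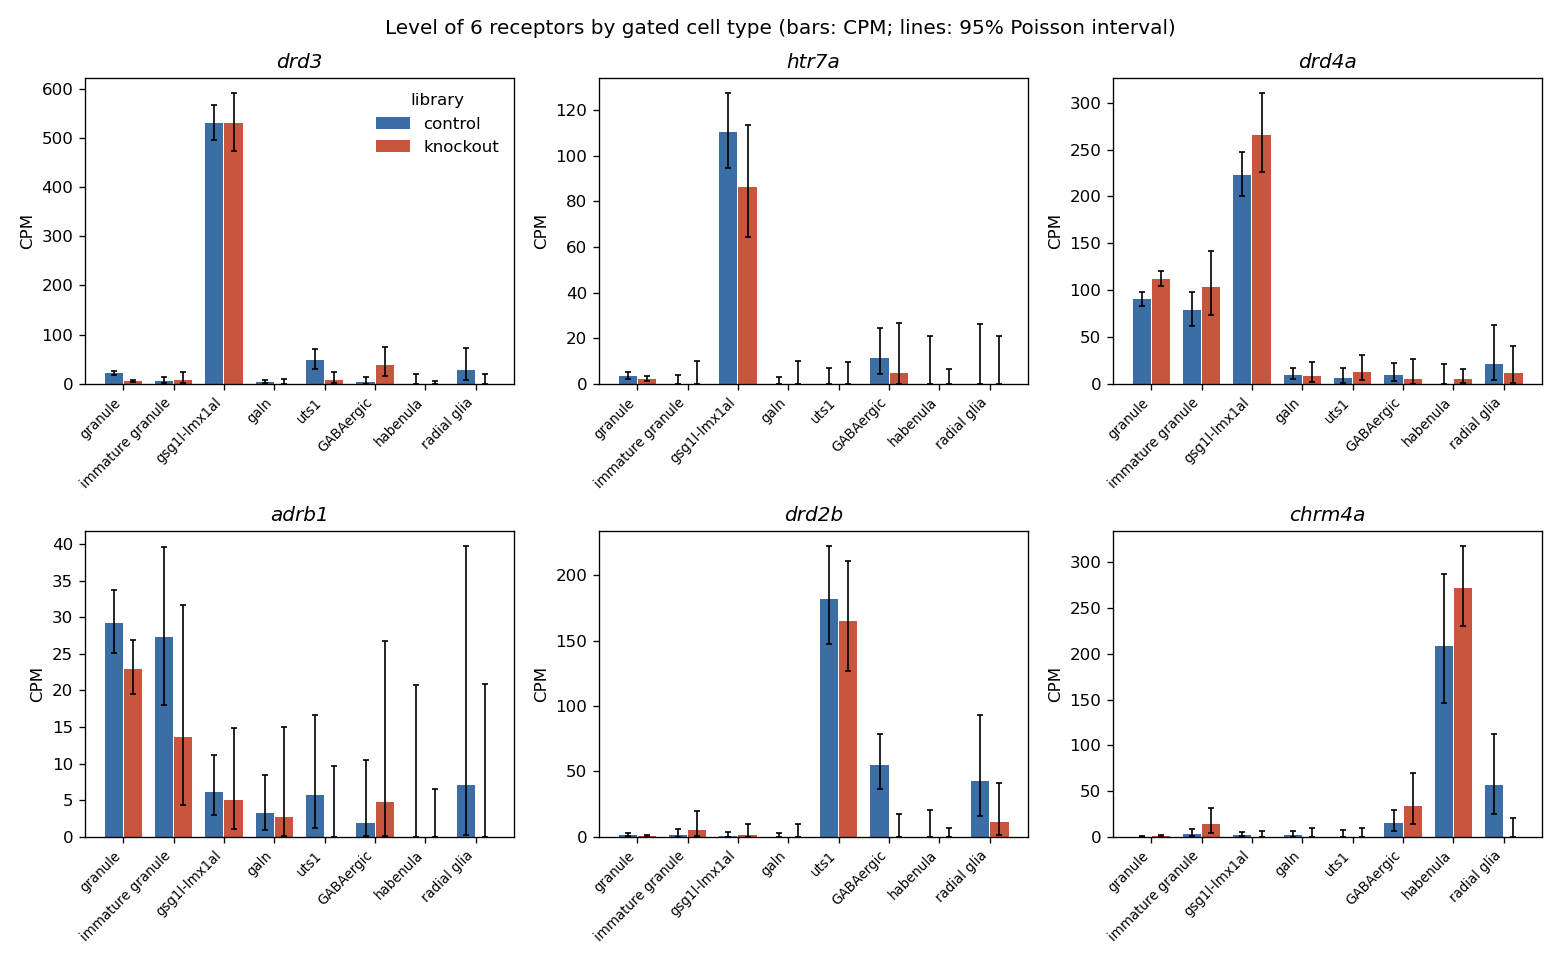
Level of 6 receptors in 8 gated cell types, as CPM (bars) with 95% Poisson intervals (lines), for the control library (blue) and the knockout library (red). Each of drd3, htr7a, drd2b and chrm4a has 1 tall pair of bars, drd4a is spread over granule, immature granule and gsg1l-lmx1al-gated cells, and adrb1 is highest in granule-gated cells.

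The uts1-gated cells held receptors of several families. They led the dopamine receptor drd2b, with 96 UMIs in the control, 182 CPM (148 to 223), and 63 in the knockout library, 165 CPM (127 to 211). It was seen in 32 of 61 and 19 of 41 cells. In granule-gated cells drd2b stood at 1.42 and 0.585 CPM, from 9 and 4 UMIs, of which free RNA at its estimated share would give 6.43 and 4.29. These cells are about as deep as galn-gated cells (8004 and 8329 UMIs), where drd2b had 0 UMIs in both libraries. A second holder of drd2b was seen in the control alone, where GABAergic-gated cells had 29 UMIs, 54.6 CPM (36.6 to 78.4), of which 11 came from 1 cell. The 18 knockout cells of that gate had 0.

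The alpha-2 adrenergic receptor adra2da, of the Gi-coupled class, was also led by uts1-gated cells, with 31 and 15 UMIs, 58.9 CPM (40.0 to 83.5) and 39.3 CPM (22.0 to 64.8). These were 56.4% and 65.2% of its UMIs. The most in 1 cell was 3 in each library. The histamine receptor hrh3 stood at 43.7 CPM (27.7 to 65.5) and 44.5 CPM (25.9 to 71.3) in uts1-gated cells. GABAergic-gated cells were close, at 56.5 CPM (38.1 to 80.7) and 33.7 CPM (13.5 to 69.4), and the order of the 2 types changed between libraries. Without the cell with most hrh3 UMIs in uts1-gated cells the levels were 25.1 and 27.3 CPM.

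Serotonin receptors of uts1-gated cells were also uneven over cells. The Gs-coupled htr7c had 30 UMIs in the control, 57.0 CPM (38.4 to 81.3), and 73 in the knockout library, 191 CPM (150 to 240). It was seen in 8 of 61 and 11 of 41 cells, and 1 knockout cell held 28 of the 73 UMIs. Without the top cell of each library the levels were 42.7 and 122.7 CPM. In the control htr7c was higher in GABAergic-gated cells, at 88.5 CPM with 27.6% of its UMIs, and in radial glia-gated cells, at 71.3 CPM. In the knockout library uts1-gated cells led it, and GABAergic-gated cells had 38.5 CPM. The Gq-coupled htr2cl1 stood at 68.4 CPM (47.9 to 94.6) and 118 CPM (85.9 to 158) in uts1-gated cells, and at 42.9 and 62.4 CPM without the top cells. Of 10 receptors compared with granule-gated cells, 6 were at least 2-fold higher in uts1-gated cells in both libraries (drd2b, htr7c, hrh3, htr2cl1, htr1fa and chrm2a) and 2 were lower (drd4a and adrb1). The call of chrm2a rests on the 0.5 counts added before each ratio, since its counts alone gave 1.93-fold in the knockout library. Over all genes 7.92% were higher and 8.3% lower. The UMI minimum was met by drd2b, htr7c and hrh3 only through the uts1-gated cells, so those calls were all but fixed by it. In the control that also held for htr1fa, with 15 granule UMIs.

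The galn-gated cells had 1 clear receptor, htr2cl1, a member of the serotonin receptor group that couples to Gq. It had 146 UMIs in the control, 120 CPM (102 to 142), and 27 in the knockout library, 72.9 CPM (48.1 to 106), against 8.69 and 3.95 CPM in granule-gated cells. It was seen in 54 of 150 and 11 of 46 cells. Other types reached like levels, so htr2cl1 had no single holder. GABAergic-gated control cells had 143 CPM (113 to 179), but their knockout counterparts had 3 UMIs, 14.4 CPM (2.98 to 42.2). Of 6 receptors compared, 1 was higher in galn-gated cells and 4 were lower than in granule-gated cells, drd4a, adrb1, drd3 and adra2c. Over all genes 3.74% were higher and 7.5% lower. The serotonin receptor htr1d, of the Gi-coupled group, was also counted in galn-gated cells, with 18 and 6 UMIs, 14.8 CPM (8.79 to 23.4) and 16.2 CPM (5.95 to 35.3).

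The habenula gate and the GABAergic gate had under 20 cells in 1 library each, and their comparison with granule-gated cells was added after the cell numbers were seen. Habenula-gated cells led 3 receptors in both libraries with intervals above that of the next type. They also led the alpha-2 adrenergic receptor adra2a, at 39.4 and 15.8 CPM, where the intervals overlapped that of GABAergic-gated cells. The muscarinic receptor chrm4a, which couples to Gi, had 37 UMIs in 19 control cells, 208 CPM (147 to 287), and 155 in 72 knockout cells, 272 CPM (231 to 318). It was seen in 12 and 54 of them. Granule-gated control cells had 0 UMIs, so the habenula level was at least 439-fold higher against a floor of 3 UMIs in that library. Among knockout cells it was 372-fold higher, from 5 granule UMIs. The Gs-coupled serotonin receptor htr7b had 35 and 88 UMIs, 197 CPM (137 to 274) and 154 CPM (124 to 190), which were 76.1% and 84.6% of its UMIs. In granule-gated cells it had 1 and 0 UMIs. The log2 ratio to granule-gated cells was 9.72 (7.71 to 15.63) in the control, and the level was at least 352-fold higher in the knockout library. In the control, 1 cell held 13 of the 35 htr7b UMIs, and without it the level was 132 CPM.

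The third was htr1fa, a Gi-coupled serotonin receptor, at 90.0 CPM (51.4 to 146) and 140 CPM (111 to 175), against 20.7 and 48.1 CPM in GABAergic-gated cells, the next type. A UMI of both chrm4a and htr7b was seen in 6 of 19 and 33 of 72 habenula-gated cells, and one of htr7b in 10 and 41. Of 10 receptors compared, 4 were higher than in granule-gated cells (the 3 above and htr4, the last from 1 and 8 UMIs and 1.62-fold in the control before 0.5 counts were added), while drd4a, adrb1 and drd3 were lower. Over all genes 8.99% were higher and 14.7% lower. The UMI minimum was met by chrm4a and htr7b only through the habenula-gated cells, so those calls were all but fixed by it. In 1 library each that also held for htr1fa (15 granule UMIs in the control) and htr4 (17 in the knockout library). The habenula gate held more cells in the knockout library, and the summed levels of chrm4a, htr7b and htr1fa over all cells were higher there too (below).

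GABAergic-gated cells were much deeper than granule-gated cells (medians 11861 and 10247.5 UMIs) and held the muscarinic pair chrm2a and chrm3a. The Gi-coupled chrm2a had 88 UMIs, 166 CPM (133 to 204), in the control and 105 UMIs, 505 CPM (413 to 611), in the knockout library. In the latter 1 cell held 60 of the 105, and without the top cell of each library the levels were 118 and 249 CPM. The Gq-coupled chrm3a stood at 113 CPM (86.2 to 145) and 192 CPM (137 to 262), and at 82.3 and 88.4 CPM without the top cells. Both were far above granule-gated cells, where chrm2a had 4.74 and 9.50 CPM and chrm3a 3.16 and 1.61 CPM. In the control, cells of the radial glia gate had chrm2a at 221 CPM (150 to 314) and chrm3a at 78.5 CPM (39.2 to 140). Both overlapped the GABAergic levels. GABAergic-gated cells held 21.5% and 34.5% of chrm2a UMIs, and 32.3% and 48.8% of chrm3a UMIs. Cells that passed no gate held more of the chrm2a UMIs, 36.9% and 38.5%, from 49 and 23 cells. Much of chrm2a therefore belonged to no gated type. Ungated cells as a whole had gad2, a gene of the GABAergic gate, at 202 and 27.6 CPM, but uts1-gated cells also had it, at 133 and 421 CPM. The other genes of that gate were scarce in ungated cells, gad1b at 10.4 and 12.8 CPM and slc32a1 at 11.6 and 7.08 CPM. In GABAergic-gated cells those were at 878 and 1472 CPM and at 672 and 943 CPM. Whether chrm2a in ungated cells came from GABAergic cells was not tested.

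The serotonin receptor htr4, which couples to Gs, was highest in GABAergic-gated cells, with 59 UMIs, 111 CPM (84.6 to 143), in the control and 8 UMIs, 38.5 CPM (16.6 to 75.8), in the knockout library. Of the control UMIs 27 came from 1 cell, and the level without it was 62.3 CPM. Control cells of the radial glia gate had 92.7 CPM (49.4 to 159) from 13 UMIs, so the order of these types in the control rests on that cell. Of 11 receptors compared, 7 were at least 2-fold higher than in granule-gated cells in both libraries (chrm2a, chrm3a, htr4, htr2cl1, htr1fa, drd4-rs and htr2aa) and 2 were lower (drd4a and adrb1). Over all genes 10.4% were higher and 6.44% lower. The UMI minimum was met only through the GABAergic-gated cells by htr2aa in both libraries. That also held for htr1fa in the control, and for chrm3a, htr4 and drd4-rs in the knockout library. Those calls were all but fixed by it there.

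The beta-2 adrenergic receptor gene adrb2a stood out in microglia-gated cells. It had 17 UMIs in 9 control cells, 293 CPM (171 to 469), and 16 in 14 knockout cells, 130 CPM (74.3 to 211), seen in 5 and 6 of them. Granule-gated cells had adrb2a at 0.790 CPM in the control. Microglial markers that the gate did not use were at their highest there, as with apoc1 at 17772 and 20572 CPM. In the 22 knockout cells of the radial glia gate, htr2cl1 had 15 UMIs, adrb2a 11 and the alpha-1 receptor adra1ab 9, and those 9 were 81.8% of the UMIs of adra1ab in that library. In the control cells of this gate, which had less of the glial markers, chrm2a had 31 UMIs, 15 of them from 1 cell. Of 6 receptors compared there, 2 were higher than in granule-gated cells in both libraries and 2 lower, with 10.4% and 8.07% of all genes. Oligodendrocyte-gated cells had 1 higher call of 6 and 0 lower (7.64% and 1.87% of all genes), htr2cl1 from 2 and 0 UMIs, which rests on the added 0.5 counts. Immature granule-gated cells also had 1 of 6, adra2c from 9 and 6 UMIs, where 2% of all genes were higher and 0.727% lower.

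**Figure D3:**
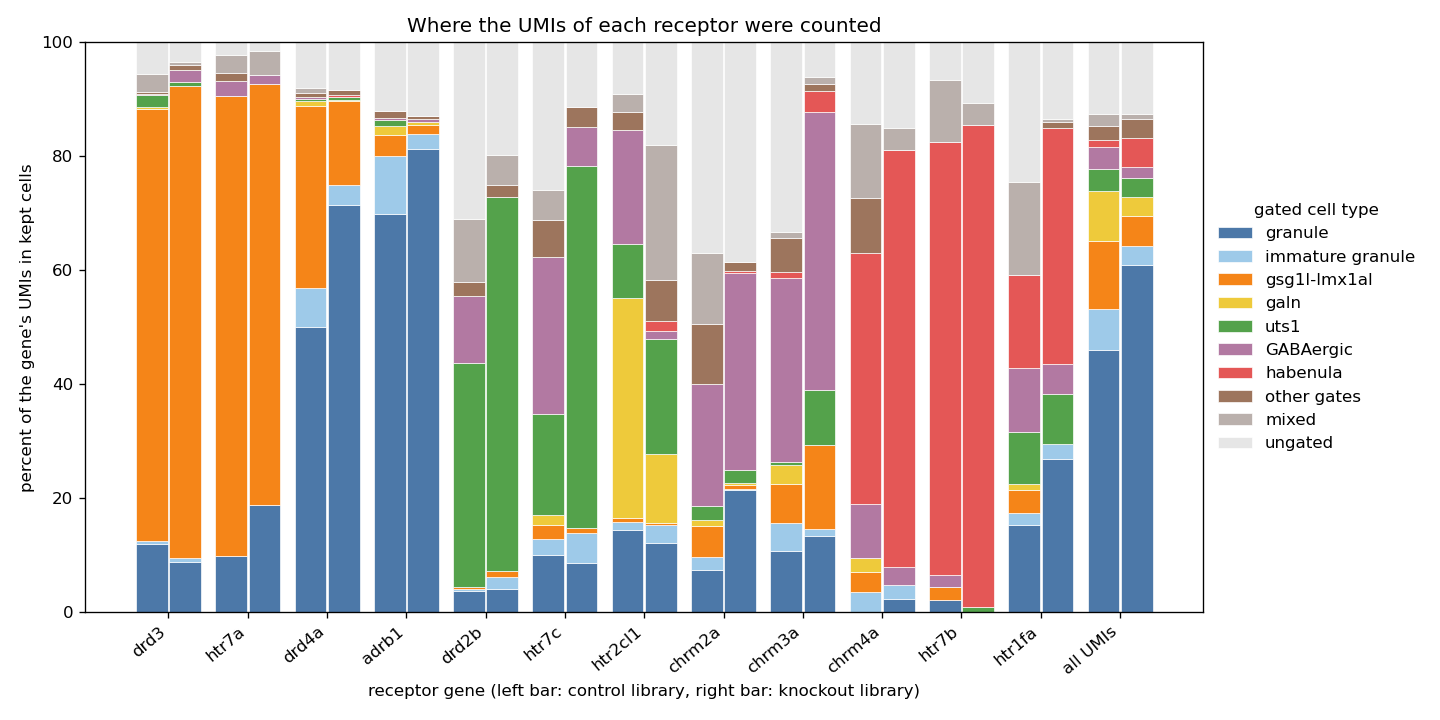
Percent of the UMIs of 12 receptors, and of all UMIs (last pair), that fell in each gated cell type, with the control library as the left and the knockout library as the right bar of each pair. The bars of drd3 and htr7a are mostly gsg1l-lmx1al-gated cells and those of htr7b mostly habenula-gated cells, while chrm2a and htr2cl1 are spread over several types and cells without a gate.

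Among types with at least 10 cells in a library, the type with the highest level was the same in both libraries for 14 of the 24 named receptors. This leaves out the 9 control microglia-gated cells, without which adrb2a counts as led by different types. For 6 of these, the interval of the leading type lay above that of the next type in both libraries, and those were drd3 and htr7a (gsg1l-lmx1al), drd2b (uts1), and chrm4a, htr7b and htr1fa (habenula). It lay above those of all other types for 5 of the 6, since for htr1fa the knockout interval overlapped that of oligodendrocyte-gated cells (33.9 CPM, 4.11 to 122, from 2 UMIs). For drd4a the gsg1l-lmx1al gate led in both, but in the knockout library its interval overlapped that of the 21 oligodendrocyte-gated cells (119 CPM, 47.7 to 245, from 7 UMIs). Among the 14 receptors with at least 50 UMIs in each library, 10 had the same leading type in both libraries. The other 4 were chrm2a, htr2cl1, htr7c and the alpha-1 receptor adra1aa, whose leading types were the GABAergic, radial glia or uts1 gates, each with 61 cells or fewer. For adra1aa the highest level was 35.7 CPM (11.6 to 83.2) in the radial glia gate of the control and 38.5 CPM (16.6 to 75.8) in GABAergic-gated knockout cells, from 5 and 8 UMIs.

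The last comparison set the knockout against the control library, gene by gene, for receptors with at least 20 UMIs over both. In granule-gated cells 19 receptors were compared, of which 2 were at least 2-fold higher in the knockout library and 3 lower. Over all genes compared, 7.43% were past the same threshold, 2.96% higher and 4.46% lower. The median log2 ratio was -0.48 over the 19 receptors and -0.05 over all genes. The 2 higher were htr1fa, with 15 and 52 UMIs, at 1.65 (0.83 to 2.62), and adra2c, a Gi-coupled adrenergic receptor, with 23 and 51 UMIs, at 1.02 (0.30 to 1.81). Lower were htr5ab, with 21 and 9 UMIs, at -1.29 (-2.65 to -0.15), htr2cl1, with 55 and 27 UMIs, at -1.13 (-1.86 to -0.45), and drd3.

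For drd3 the lower level in granule-gated cells of the knockout library, with 137 and 33 UMIs, was -2.15 on the log2 scale (-2.76 to -1.61). In gsg1l-lmx1al-gated cells it was 0.00 (-0.19 to 0.19). Some granule-gated cells had a UMI of gsg1l or lmx1al but did not pass that gate, which needed at least 3 UMIs and both genes. They numbered 204 and 125 and held 111 and 9 of those drd3 UMIs, 163 and 18.4 CPM. In the other 1998 and 2037 granule-gated cells drd3 stood at 4.60 and 3.78 CPM, a log2 ratio of -0.28. The gene gsg1l itself was lower in granule-gated cells of the knockout library, at 83.4 and 16.5 CPM. The gene lmx1al was not, at 13.3 and 13.01 CPM. The split therefore did not take matched cells from the 2 libraries, and what the difference in drd3 rests on was not tested. Free RNA at the estimated share would give 33 and 18 of the granule drd3 UMIs.

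The 2 most counted granule receptors differed little. The log2 ratio of drd4a was 0.30 (0.15 to 0.46) in granule-gated cells and 0.26 (-0.03 to 0.53) in gsg1l-lmx1al-gated cells, beyond counting error in the first. That of adrb1 in granule-gated cells was -0.35 (-0.67 to -0.04). For chrm2a it was 0.99 (0.36 to 1.68) in granule-gated cells, with 30 and 65 UMIs, of which free RNA would give about 18 and 24. Intervals of 8 of the 19 granule receptors excluded 0, 4 of them higher in the knockout library, against 34% and 13.9% of all genes. In gsg1l-lmx1al-gated cells 6 receptors were compared, of which drd4-rs (14 and 14 UMIs) and chrm3a (13 and 12 UMIs) were at least 2-fold higher and chrm2a (22 and 2 UMIs) lower, where 3.49% of all genes were higher and 5.99% lower. For chrm2a the log2 ratio was -1.70 (-5.12 to 0.04), 14 of the 22 control UMIs came from 1 cell, and with each cell thinned to 1000 UMIs the ratio was 0.90.

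**Figure D4:**
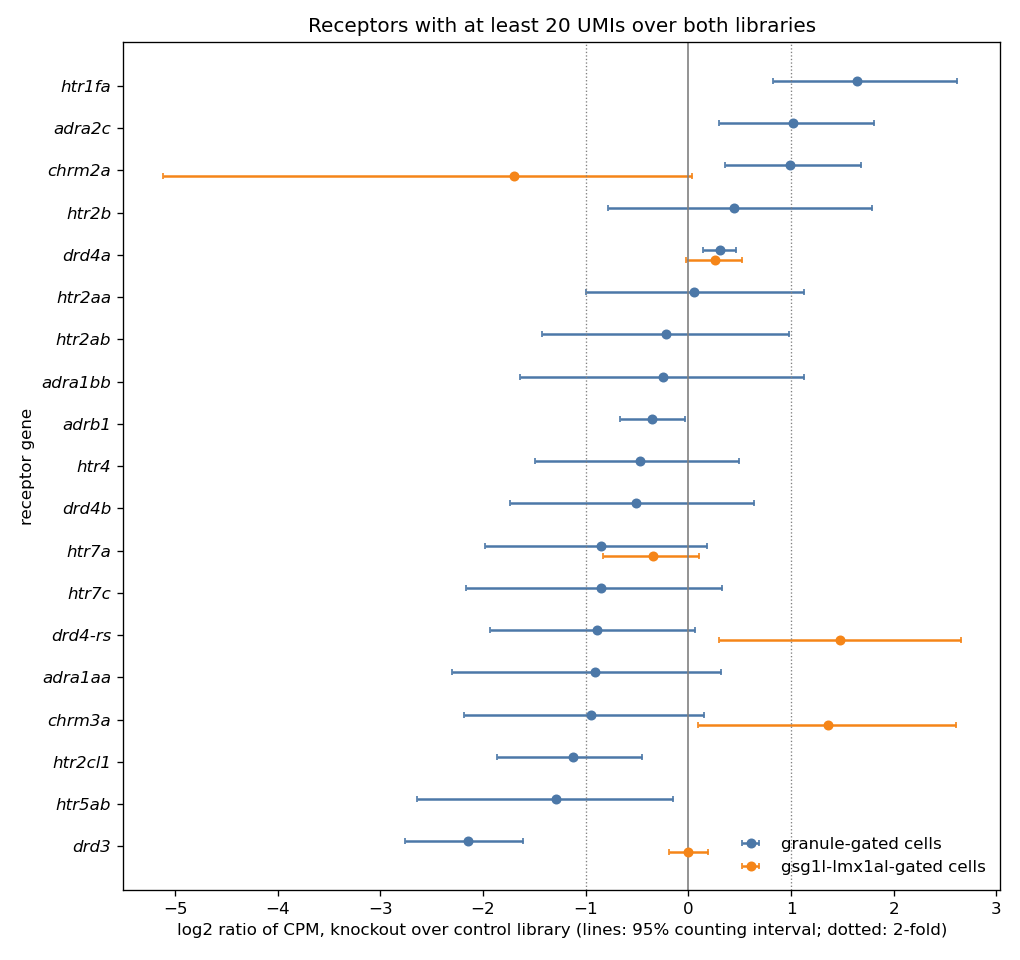
Log2 ratio of CPM, knockout over control library, for receptors with at least 20 UMIs over both libraries, in granule-gated cells (blue) and gsg1l-lmx1al-gated cells (orange), with 95% counting intervals and dotted lines at 2-fold. Most intervals cross 0, drd3 is lowest in granule-gated cells at -2.15 and at 0.00 in gsg1l-lmx1al-gated cells, and htr1fa is highest at 1.65.

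Summed over all kept cells, 37 receptors were compared and 8 were at least 2-fold apart, 3 higher and 5 lower in the knockout library. Of all genes 9.49% were past the threshold, 4.91% higher and 4.58% lower. The 3 higher were chrm4a at 1.62 (1.26 to 2.01), htr7b at 1.46 (0.96 to 2.00) and htr1fa at 1.27 (0.91 to 1.64). Each was led by habenula-gated cells, which made up 0.464% of control and 2.23% of knockout cells. Those cells held only 16.3% and 41.5% of htr1fa UMIs, and htr1fa was also higher in granule-gated cells (above). Within habenula-gated cells the levels of the 3 receptors had overlapping intervals in the 2 libraries (above). Lower were drd3 at -1.31 (-1.48 to -1.14) and htr7a at -1.40 (-1.82 to -1.01), both led by gsg1l-lmx1al-gated cells, which made up 11.9% and 4.86%. The other 3 lower receptors were drd2b at -1.05 (-1.41 to -0.71), which became 0.34 with each cell thinned to 1000 UMIs, htr4 at -1.28 (-1.75 to -0.85) and adra1d at -1.72 (-2.94 to -0.76). How much of these summed differences came from the mix of cells was not tested beyond the levels within types given here. Over all kept cells the feature H2B-mGL also differed, at 12077 and 25525 CPM. Whether the sort took a like mix of cells from both genotypes was not tested.

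Genes that make the transmitters or carry the receptor signal were counted by list. Of 24 genes for synthesis, transport and breakdown, 22 were in the tables, and 8 had enough UMIs to be compared between libraries in granule-gated cells, of which 0 were at least 2-fold higher and 2 lower. Of 17 genes of the Gs list 15 were compared, with 1 lower, and of 15 of the Gi list 13, with 1 lower. Of 15 of the Gq list 8 were compared and of 8 of the desensitisation list 7, with 0 past the threshold in each. Of all genes 2.96% were higher and 4.46% lower there. The median log2 ratios of the 5 lists lay between -0.24 and 0.07, and that of all genes was -0.05. In gsg1l-lmx1al-gated cells 0 genes of these lists were higher, and 1 of 4 of the synthesis list, 1 of 12 of the Gs list, 3 of 10 of the Gi list, 1 of 6 of the Gq list and 0 of 6 of the desensitisation list were lower, where 3.49% of all genes were higher and 5.99% lower. The lower genes with at least 100 UMIs in granule-gated cells were kcnj3a, a subunit of the potassium channel opened by Gi-coupled receptors, with 93 and 25 UMIs (-1.99, -2.71 to -1.36, and 34.7 against 5.07 CPM in gsg1l-lmx1al-gated cells), adcy1a, an adenylyl cyclase, with 70 and 36 UMIs (-1.06, -1.69 to -0.47), and mao, which breaks down monoamines, with 72 and 38 UMIs (-1.03, -1.64 to -0.45). In gsg1l-lmx1al-gated cells mao went the other way, at 29.8 and 54.1 CPM, a log2 ratio of 0.87 (0.17 to 1.53).

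Some of these genes had the same leading types as the receptors. The gene mao stood at 602 CPM (493 to 727) and 561 CPM (501 to 626) in habenula-gated cells, against 11.4 and 5.55 CPM in granule-gated cells. The adenylyl cyclase gene adcy5 reached 821 CPM (694 to 966) and 922 CPM (845 to 1004) there, against 86.5 and 87.7 CPM. In uts1-gated cells itpr1b, a calcium release channel of the Gq pathway that was also a gene of the Purkinje gate, stood at 406 CPM (354 to 465) and 476 CPM (410 to 551), against 21.8 and 18.7 CPM. In granule-gated cells the adenylyl cyclase gene adcy2a had 524 CPM (506 to 542) and 320 CPM (307 to 334), a log2 ratio of -0.71, and arrb2b, an arrestin that silences active receptors, 396 CPM and 412 CPM. The dopamine synthesis gene th had 125 and 143 UMIs in granule-gated cells, 19.8 CPM (16.4 to 23.5) and 20.9 CPM (17.6 to 24.6), and 6 and 0 UMIs in gsg1l-lmx1al-gated cells.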

How the data were processed

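Counts of UMIs per gene and barcode were deposited as whole numbers, for 472097 control and 548768 knockout barcodes with a UMI, so empty droplets were included. The submitters' processing notes name Cell Ranger 7.1.0, Seurat and the build GRCz11, and the annotation is not given in the sources used here. The receptors, gates and gene lists were chosen with earlier results of these data known. Both libraries were treated alike, in Python 3.11.15 with numpy 2.4.6, scipy 1.17.1 and pandas 2.3.3. Cells needed at least 1000 UMIs, 500 genes and at most 15% mitochondrial UMIs. A gate needed at least 3 UMIs over at least 2 genes and more than the 99.99th percentile of a Poisson count at 10% free RNA, profiled from barcodes under 100 UMIs. Cells passing 2 or more gates other than the granule and immature granule gates were set aside (27 and 13). A cell passing 1 such gate took that type, whether or not it also passed the granule or immature granule gate. Doublets were not otherwise removed, since Scrublet (scanpy 1.11.5) marked 0 and 2 cells, and leaving out its top 134 and 84 was an alternative. UMIs were summed per population. Sums carry exact Poisson, ratios exact conditional binomial and shares Clopper-Pearson intervals, at 95%. Log2 ratios had 0.5 counts added, while their intervals came from the counts alone. A count of 0 was set against a floor of 3. With 1 library per genotype no test was made. Depth was 19368218 and 17646062 UMIs over all barcodes. Receptors with at least 50 UMIs in each library, and the 4 highest of each gated type, were named (24). Pathway genes were named by the 4 most counted of each list and those 2-fold apart in granule-gated cells with at least 100 UMIs. Gene symbols are those of the deposited tables. The identifiers of all 60 receptors were found in the gene name table, where 37 had the same symbol, ignoring case. Ratio code was tested on simulated data.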

Additional observations from a re-analysis of the deposited data

How the results depend on the processing

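The number of receptors with at least 50 UMIs in each library, 14, stayed at 12 to 14 under other cell minimums and with top-scoring doublets left out. The count of receptor and type pairs at least 2-fold from granule-gated cells, 25, rested on the UMI minimum. It was 46 with at least 10 UMIs (8 for radial glia, 8 for oligodendrocyte, 6 for immature granule) and 14 with at least 50 UMIs (3 for galn, 4 for uts1, 0 for oligodendrocyte and 0 for immature granule). It was 41 when types with at least 10 cells were added after seeing the data. A gate of 5 UMIs gave 2 for immature granule and raised the count between libraries in granule-gated cells from 5 to 8, and at least 100 UMIs left 1. Under the other alternatives for these counts, none moved by over 1.5 times. With each cell thinned to 1000 UMIs, the ratio of chrm2a in gsg1l-lmx1al-gated cells went from -1.70 to 0.90 and that of drd2b over all cells from -1.05 to 0.34, and the cause was not tested. Another 9 of 42 ratios moved beyond their intervals, among them htr7c in granule-gated cells from -0.85 to 1.79 and drd3 in gsg1l-lmx1al-gated cells from 0.00 to -0.22. Without the cell with the most UMIs of a receptor, 16 of 48 levels moved beyond their intervals. Without granule-gated cells that had a gsg1l or lmx1al UMI, the granule ratio of htr7a became 0.91 and that of chrm3a 0.32, and with free RNA subtracted that of drd3 became -2.87. Scaling by the median gene ratio changed none of 42 ratios beyond its interval. No paired analysis was possible because each genotype had 1 library. Depth limits the 46 receptors with under 50 UMIs in a library.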

Other observations

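Receptors below the naming limits were also uneven over types. The dopamine receptor drd2a had 40 of its 55 control UMIs in GABAergic-gated cells, 75.3 CPM, with 18 from 1 cell, and 5 of 23 in the knockout library, all from 1 cell. In the same cells htr1aa, a Gi-coupled serotonin receptor, had 16 of 25 and 7 of 18 UMIs. The serotonin receptor htr5aa had 11 of 18 and 9 of 10 UMIs in uts1-gated cells, 20.9 and 23.6 CPM, and adra2b, a Gi-coupled adrenergic receptor, had 16 of 35 and 8 of 16 there. In gsg1l-lmx1al-gated cells the gene listed as HTR7 had 11 of 14 and 5 of 5 UMIs, and DRD5, a Gs-coupled dopamine receptor, had 8 of 10 in the control. These genes were chosen after their values were seen.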
